A study of Mus musculus with 18 samples.

Results

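The myelin galactolipid synthesis genes are Ugt8a, Fa2h, Gal3st1, Cers2, Aspa and Elovl1, which were chosen by name from the biochemistry of the pathway. The rule used no measured value, but earlier results of these data were known at the time. The members are 6 of the 28852 genes in the table of expression values, and all 6 passed the filter that left 13347 genes for testing. RNA sequencing had been carried out on whole cerebral cortex of mice labelled Alg13 knockout and of mice labelled wild type, at postnatal days 1, 7 and 30, with 3 libraries in each of the 6 groups. The series set out to learn what loss of Alg13, a subunit of an enzyme in the assembly of N-glycan precursors on a lipid carrier, does to cortical interneurons. The sources used here do not give the form of the deleted allele, the strain, the sex of the animals or any allele that the groups have in common. The labels number the replicates but name no animal, and a p-value here therefore speaks only of the spread among libraries, part or all of which could be technical.

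Galactosylceramide and its sulfated form, sulfatide, are the glycolipids that set myelin apart from most other membranes, and oligodendrocytes make them in the cortex while they wrap axons. The ceramide part carries a very long fatty acid, often hydroxylated, and the head group is a galactose that may be sulfated. Elovl1 encodes an elongase of very long saturated and monounsaturated fatty acids, and Cers2 the ceramide synthase that attaches such acids to the sphingoid base. Fa2h encodes the hydroxylase of the fatty acid, Ugt8a the galactosyltransferase that joins UDP-galactose to ceramide, and Gal3st1 the sulfotransferase that turns galactosylceramide into sulfatide. Aspa encodes aspartoacylase, an oligodendrocyte enzyme that splits N-acetylaspartate and so releases acetate that can enter myelin lipids.

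Promoter windows of 4 members are printed because these genes had the most dissimilar courses with age, a steep rise for Ugt8a, a late rise for Aspa, an early rise for Gal3st1 and a nearly level course for Cers2. The windows come from RefSeq on build GRCm38.p6, run 5′ to 3′ on the strand of the gene from 250 bases before to 50 bases after an annotated transcript start, and carry in capitals the letters of the motifs searched. The build of the expression table is GRCm39, so these coordinates belong to the windows only. Of the 6 members 5 matched the RefSeq promoter table, and Fa2h did not.
Ugt8a, chr3:125938603-125938902, minus strand: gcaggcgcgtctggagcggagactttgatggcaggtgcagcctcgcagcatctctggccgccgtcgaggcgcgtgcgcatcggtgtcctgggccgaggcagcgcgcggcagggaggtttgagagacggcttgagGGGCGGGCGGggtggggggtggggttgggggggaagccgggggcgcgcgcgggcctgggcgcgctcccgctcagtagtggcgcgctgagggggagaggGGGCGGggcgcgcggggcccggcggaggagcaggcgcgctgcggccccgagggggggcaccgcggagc
Aspa, chr11:73324588-73324887, minus strand: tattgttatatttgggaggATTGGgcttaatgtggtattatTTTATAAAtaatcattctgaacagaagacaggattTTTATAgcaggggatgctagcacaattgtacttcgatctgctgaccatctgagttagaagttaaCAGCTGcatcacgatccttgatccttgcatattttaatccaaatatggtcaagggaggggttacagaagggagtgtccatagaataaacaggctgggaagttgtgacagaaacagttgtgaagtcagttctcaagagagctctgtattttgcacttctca
Gal3st1, chr11:3983386-3983685, plus strand, the most upstream of 3 windows: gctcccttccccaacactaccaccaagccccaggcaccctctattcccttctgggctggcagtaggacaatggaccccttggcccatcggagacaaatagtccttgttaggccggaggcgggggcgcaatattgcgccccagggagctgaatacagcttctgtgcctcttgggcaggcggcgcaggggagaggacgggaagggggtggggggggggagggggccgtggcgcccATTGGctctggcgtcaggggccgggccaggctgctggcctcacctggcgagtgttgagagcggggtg
Cers2, chr3:95314940-95315239, plus strand, the most upstream of 2 windows: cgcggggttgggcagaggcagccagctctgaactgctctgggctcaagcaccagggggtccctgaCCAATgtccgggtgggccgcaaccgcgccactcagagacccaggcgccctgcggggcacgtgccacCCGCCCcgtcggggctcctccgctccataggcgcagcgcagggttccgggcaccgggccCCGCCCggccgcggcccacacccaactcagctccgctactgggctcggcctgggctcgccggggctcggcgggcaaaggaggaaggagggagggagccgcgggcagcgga

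The letters searched on both strands were CTGGCAC for the myelin factor Myrf, and in a second search for that factor CTGGTAC with another middle base. The SOX factors were searched with ACAAAG, the E-box with CAGCTG, the CCAAT box by its own letters, the GC box with GGGCGG and the box of the TATA-binding protein with TATAAA. The Ugt8a window held 78.3% G and C and 3 GC boxes, of which those at -116 and -112 from the start overlap and the other lies at -18. The Aspa window held 39% G and C, against a median of 52.7% over all 32851 windows of that length. It had an E-box at -110, a CCAAT on the opposite strand at -231, and TATAAA at -209 and -174 on the opposite strand and at -207 on the strand of the gene. Those at -209 and -207 overlap. The Gal3st1 window held 67% G and C, with a CCAAT on the opposite strand at -17. The Cers2 window held 75% G and C, with a CCAAT at -185 and GC boxes on the opposite strand at -119 and -60. No window of the 5 members held either Myrf motif or the SOX motif, which occur in 5.01%, 2.24% and 18.7% of all windows. GC boxes occur in 35.7% of all windows, CCAAT in 37.4%, the E-box in 16.3% and TATAAA in 13.6%. A match is a description of the letters and not a site of binding, and an absent match says only that those letters are not in the window.

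Expression was given as FPKM, a fragment abundance per transcript length and per library total, so that levels of different genes can be compared within a library. The libraries had 11703 to 12780 genes at 1 FPKM or more, their absolute depth is unknown, and their relative depth spanned 0.901 to 1.21. Wild type day 1 replicate 3 stood apart, with a correlation to the rest of its group as low as 0.893 across genes. That library carried the salivary gland transcript Bpifa2 at 14952 FPKM, against at most 6.30 in the other day 1 libraries, and the brown fat transcript Ucp1 at 239.5 FPKM. Alg13 RNA was 2.04 ± 0.862 FPKM in knockout and 2.67 ± 0.676 in wild type libraries at day 1 (SD, n = 3 each), and the knockout mean was the higher at days 7 and 30, at 2.35 ± 0.423 against 1.80 ± 0.228 and 1.45 ± 0.334 against 1.00 ± 0.191. RNA of the gene therefore does not check the genotype labels, and every direction below between genotypes rests on those labels. In whole tissue a lower level of an oligodendrocyte transcript can come from fewer cells or from less RNA per cell, and these cannot be told apart.

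With age the 6 genes split into those that started near 0 and climbed steeply and those that were present from birth. Ugt8a and Fa2h climbed most, Aspa followed after day 7, Gal3st1 rose early, and Cers2 and Elovl1 were above 1 FPKM in all 18 libraries. In wild type libraries 3 of the 6 members rose from day 1 to day 7 and 1 fell, where 20.9% of all genes tested rose and 28% fell. From day 7 to day 30, 5 of the 6 rose, against 20.8% of all genes. In knockout libraries 3 of the 6 rose over the earlier step and all 6 over the later one, against backgrounds of 19.3% and 15.9%. Aspa, and Fa2h but for 1 library, reached 1 FPKM at day 30 alone, so the filter favoured their rise to that day and nothing is read from the counts of the later step. All tests across genes used limma on log2(FPKM + 1) with two-sided p-values and a threshold of 0.05 after Benjamini-Hochberg adjustment across all 13347 genes, and log2 changes are on that scale, which understates changes of genes near 0.

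**Figure D1:**
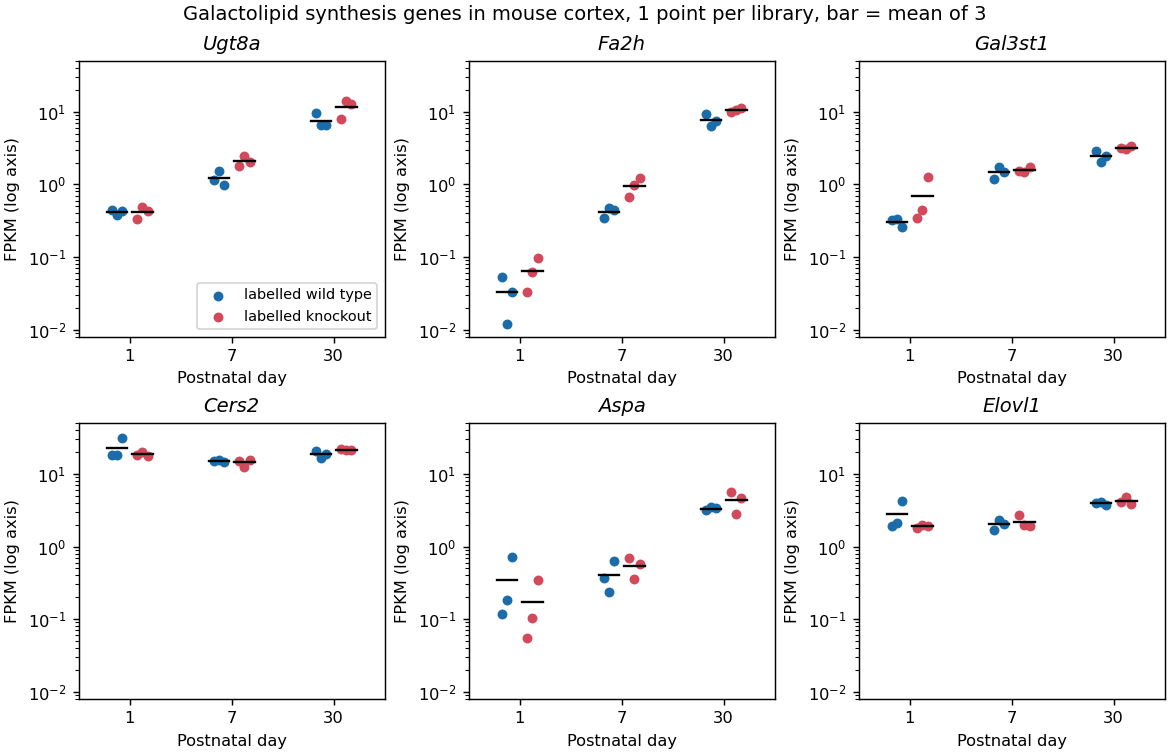
FPKM of each gene (log axis) by postnatal day, with 1 point per library, blue for libraries labelled wild type and red for libraries labelled knockout, and a bar at the mean of 3. Ugt8a, Fa2h and Aspa climbed toward day 30, Gal3st1 already stood above 1 FPKM at day 7, and Cers2 stayed between 12.6 and 31.3 FPKM throughout.

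Elovl1, the elongase, measured 1.92, 2.14 and 4.29 FPKM in the wild type day 1 libraries, 1.70, 2.32 and 2.04 at day 7 and 3.92, 4.11 and 3.78 at day 30. The high value at day 1 belongs to replicate 3, the library with salivary gland and brown fat transcripts. In knockout libraries it measured 1.81, 1.96 and 1.90 FPKM at day 1, 2.68, 2.00 and 1.89 at day 7 and 4.05, 4.81 and 3.79 at day 30. Every day 30 library was above every day 7 library. From day 7 to day 30 it rose 1.95-fold in wild type means (log2 0.71, SE 0.178, adjusted p = 0.00333, limma) and 1.92-fold in knockout means (log2 0.71, SE 0.178, adjusted p = 0.00497, limma). It did not pass over the earlier step in either genotype, with log2 differences of -0.28 in wild type (adjusted p = 0.213, limma) and 0.14 in knockout (adjusted p = 0.553, limma). Without wild type day 1 replicate 3 the wild type difference was -0.0062. Exons of Elovl1 overlap those of Cdc20 on the opposite strand, a cell division gene at 0.345 to 9.14 FPKM here, and the sources used here do not say whether the counting used strand, so its level is uncertain.

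Cers2, the ceramide synthase, was the most abundant member in all 6 groups. It measured 18.2, 18.5 and 31.3 FPKM in the wild type day 1 libraries, 14.9, 15.4 and 14.8 at day 7 and 20.5, 16.5 and 19.0 at day 30. In knockout libraries it measured 18.2, 20.1 and 17.7 FPKM at day 1, 14.9, 12.6 and 15.6 at day 7 and 22.1, 21.1 and 21.5 at day 30. Day 7 was the lowest day in both genotypes, with every library below all those of day 1 and day 30 of its genotype. The fall from day 1 to day 7 was 0.663-fold of the day 1 mean in wild type (log2 -0.52, SE 0.157, adjusted p = 0.0122, limma). Without wild type day 1 replicate 3, which holds the highest value, it was -0.27 with an adjusted p of 0.0430 by limma, and in a fit of those 6 libraries alone the call was lost, with an adjusted p of 0.107 by limma. In knockout libraries the same step gave log2 -0.36 (SE 0.157, adjusted p = 0.0708, limma). From day 7 to day 30 the level rose 1.50-fold in knockout means (log2 0.56, SE 0.157, adjusted p = 0.0106, limma), a call that was lost without knockout day 7 replicate 2 (adjusted p = 0.0525, limma). The wild type step of log2 0.29 did not pass (adjusted p = 0.136, limma), but it was called in 4 alternatives, with adjusted p-values of 0.00402 to 0.0328 by limma. Exons of Cers2 overlap those of Setdb1, a histone methyltransferase gene on the opposite strand at 7.75 to 23.3 FPKM, so reads of these genes may not be told apart and its level is uncertain.

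Fa2h, the hydroxylase, was close to 0 at birth, with 0.0534, 0.0120 and 0.0328 FPKM in the wild type day 1 libraries and 0.0326, 0.0619 and 0.0962 in the knockout ones. At day 7 the wild type libraries measured 0.350, 0.470 and 0.442 FPKM and the knockout libraries 0.663, 0.968 and 1.21. At day 30 they measured 9.45, 6.35 and 7.47 FPKM and 9.97, 10.8 and 11.3. No library of an earlier day reached the range of a later one, and Fa2h went from the lowest member at day 1 to the upper ranks at day 30. From day 1 to day 30 the mean rose 237-fold in wild type and 168-fold in knockout libraries, folds that rest on day 1 values near 0. The step from day 7 to day 30 was log2 2.61 in wild type (SE 0.130, adjusted p = 3.41e-10, limma) and 2.59 in knockout libraries (SE 0.130, adjusted p = 1.56e-09, limma). The earlier step was log2 0.46 (SE 0.130, adjusted p = 0.00802, limma) and 0.86 (SE 0.130, adjusted p = 5.92e-05, limma). The wild type call over the earlier step was lost with a pseudocount of 3 (adjusted p = 0.107, limma) and with quantile normalization (adjusted p = 0.0600, limma). Only 1 library before day 30 reached 1 FPKM for Fa2h, so it entered the tests through its day 30 values. The filter thus favoured its rise to day 30, and no support is drawn from the p-values of that step.

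Ugt8a, the galactosyltransferase that commits ceramide to galactolipids, measured 0.449, 0.377 and 0.436 FPKM in wild type libraries at day 1, 1.16, 1.55 and 0.979 at day 7 and 9.52, 6.65 and 6.59 at day 30. In knockout libraries it measured 0.331, 0.487 and 0.428 FPKM at day 1, 1.82, 2.48 and 2.01 at day 7 and 8.05, 14.2 and 12.6 at day 30. As for Fa2h, the 3 days did not overlap in either genotype. The wild type mean rose 2.92-fold and then 6.18-fold, with log2 steps of 0.64 (SE 0.177, adjusted p = 0.00686, limma) and 1.94 (SE 0.177, adjusted p = 2.73e-07, limma). The knockout mean rose 5.07-fold and then 5.53-fold, with log2 steps of 1.13 (SE 0.177, adjusted p = 8.41e-05, limma) and 2.00 (SE 0.177, adjusted p = 4.77e-07, limma). With a pseudocount of 3 the earlier wild type step lost its call (adjusted p = 0.0729, limma).

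Gal3st1, the sulfotransferase, measured 0.321, 0.330 and 0.263 FPKM in wild type libraries at day 1, 1.20, 1.76 and 1.48 at day 7 and 2.90, 2.01 and 2.48 at day 30. In knockout libraries it measured 0.346, 0.443 and 1.27 FPKM at day 1, 1.55, 1.46 and 1.74 at day 7 and 3.17, 3.05 and 3.35 at day 30. The high day 1 value belongs to knockout replicate 3. The larger step of Gal3st1 came early in wild type, where it rose 4.86-fold from day 1 to day 7 (log2 0.92, SE 0.164, adjusted p = 0.000259, limma) and 1.66-fold from day 7 to day 30 (log2 0.48, SE 0.164, adjusted p = 0.0224, limma). The call over the later wild type step was lost without wild type replicate 1 or 3 of day 7, or replicate 1 or 3 of day 30, with adjusted p-values of 0.0518 to 0.0981 by limma. In knockout libraries the steps were 2.31-fold (log2 0.66, SE 0.164, adjusted p = 0.00348, limma) and 2.01-fold (log2 0.70, SE 0.164, adjusted p = 0.00318, limma).

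Aspa, which supplies acetate, measured 0.119, 0.183 and 0.722 FPKM in wild type libraries at day 1, 0.364, 0.235 and 0.632 at day 7 and 3.145, 3.46 and 3.39 at day 30. In knockout libraries it measured 0.0552, 0.105 and 0.351 FPKM at day 1, 0.684, 0.357 and 0.572 at day 7 and 5.62, 2.82 and 4.62 at day 30. Days 1 and 7 overlapped in wild type, and the highest of these values again belongs to wild type day 1 replicate 3, while in knockout all day 7 values lay above those of day 1 by a narrow margin. The step from day 7 to day 30 was 8.12-fold in wild type (log2 1.63, SE 0.197, adjusted p = 5.18e-06, limma) and 8.10-fold in knockout means (log2 1.77, SE 0.197, adjusted p = 4.64e-06, limma). The earlier step did not pass in wild type (log2 0.09, adjusted p = 0.726, limma) or in knockout libraries (log2 0.40, adjusted p = 0.107, limma). Aspa reached 1 FPKM in the 6 day 30 libraries and in no other, so it entered the tests through them. The filter thus favoured its rise to day 30, and no support is drawn from the p-values of that step.

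In wild type day 1 replicate 3, where Cers2, Elovl1 and Aspa each had their highest day 1 value, markers of other tissues were raised as well. The 7 salivary gland genes summed to 30693 FPKM there against at most 11.7 in the day 1 knockout libraries, and the 8 meningeal and fibroblast genes to 528 against at most 81.2. Among genes of the glia that form peripheral myelin, Pmp22 stood at 14.4 FPKM against 4.45 to 6.72 in the other day 1 libraries, and the myelinating-lineage factor Sox10 at 9.73 against 3.11 to 6.46. The sum of 11 myelin structural genes in that library, 15.8 FPKM, lay within the range of its group, 13.0 to 16.4. The part of these transcripts in the member values was not tested. For knockout day 7 against day 1, a fit of those 6 libraries alone called 5 of the 6 members and 53.5% of all genes. It added Aspa (log2 0.40, adjusted p = 0.0293, limma) and Cers2 (log2 -0.36, adjusted p = 0.0270, limma). Same-numbered libraries of these groups deviated together, and with the replicate number as a block the same 5 members and 56.7% of all genes were called, with an adjusted p of 0.0245 for Aspa and 0.0381 for Cers2 by limma.

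The order of levels changed with age. At days 1 and 7 Cers2 was followed by Elovl1, whose day 7 range overlapped that of Gal3st1 in wild type and that of Ugt8a in knockout libraries. Below Elovl1 in wild type at day 1, the range of Aspa overlapped those of Ugt8a and Gal3st1. Every Ugt8a value there, 0.377 to 0.449 FPKM, lay above every Gal3st1 value, 0.263 to 0.330. Fa2h was lowest in that group, without overlap with its neighbour. At day 30 the wild type order of means was Cers2 at 18.7 ± 2.00, Fa2h at 7.76 ± 1.57, Ugt8a at 7.59 ± 1.67, Elovl1 at 3.94 ± 0.168, Aspa at 3.33 ± 0.168 and Gal3st1 at 2.46 ± 0.446 FPKM (SD, n = 3 each). Fa2h and Ugt8a did not differ beyond their spread, and all other neighbours were separated. In knockout libraries at day 30 Ugt8a at 11.6 ± 3.22 and Fa2h at 10.7 ± 0.669 FPKM followed Cers2 at 21.6 ± 0.522. Next came Aspa at 4.35 ± 1.42 and Elovl1 at 4.22 ± 0.530, and Gal3st1 again had the lowest mean, 3.19 ± 0.151 (SD, n = 3 each). There the ranges of Ugt8a and Fa2h overlapped. That of Aspa, 2.82 to 5.62 FPKM, overlapped those of both Elovl1 and Gal3st1.

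Ratios between members within a library showed which members changed unequally, over 5 pairs and 15 exact permutation tests adjusted together, of which 9 passed 0.05. The log2 ratio of Ugt8a to Cers2, on values of FPKM + 1, was -3.91 ± 0.293 at day 1, -2.58 ± 0.367 at day 7 and -1.04 ± 0.349 at day 30 over both genotypes (SD, n = 6 each). It rose by 1.32 and by 1.54 at the successive steps (exact permutation p = 0.00216 and adjusted p = 0.00649 for each), without overlap between days. The ratio of Elovl1 to Cers2 rose by 0.37 (exact permutation, adjusted p = 0.00649) and by 0.29 (exact permutation, adjusted p = 0.0433). The second of these calls was lost when any of 10 single libraries was left out, with adjusted p-values of 0.0505 to 0.0758, and with a pseudocount of 3, where the rise was 0.09 (adjusted p = 0.363).

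Among the genes that act at the galactose end, sulfotransferase RNA fell behind galactosyltransferase RNA late. The ratio of Gal3st1 to Ugt8a fell by 1.38 from day 7 to day 30, from -0.05 ± 0.281 to -1.43 ± 0.309 (SD, n = 6 each; exact permutation, adjusted p = 0.00649). Over the earlier step it differed by -0.10 over both genotypes (exact permutation, adjusted p = 0.689). Within genotypes it moved opposite ways, from -0.12 ± 0.0680 to 0.16 ± 0.152 in wild type and from 0.21 ± 0.395 to -0.26 ± 0.210 in knockout libraries (SD, n = 3 each). The days did not overlap in either genotype, and this difference between genotypes was not tested. The ratio of Fa2h to Ugt8a rose by 0.63 from day 7 to day 30 (exact permutation, adjusted p = 0.00649). Its earlier step of -0.22 (exact permutation, adjusted p = 0.0433) reversed to 0.60 with a pseudocount of 0.1 (adjusted p = 0.0162), with Fa2h near 0 at day 1, so no direction is drawn from it. The ratio of Aspa to Ugt8a fell by 0.64 from day 1 to day 7 (exact permutation, adjusted p = 0.0216), a call lost with a pseudocount of 0.1 (adjusted p = 0.162), and differed by -0.27 over the later step (exact permutation, adjusted p = 0.472).

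**Figure D2:**
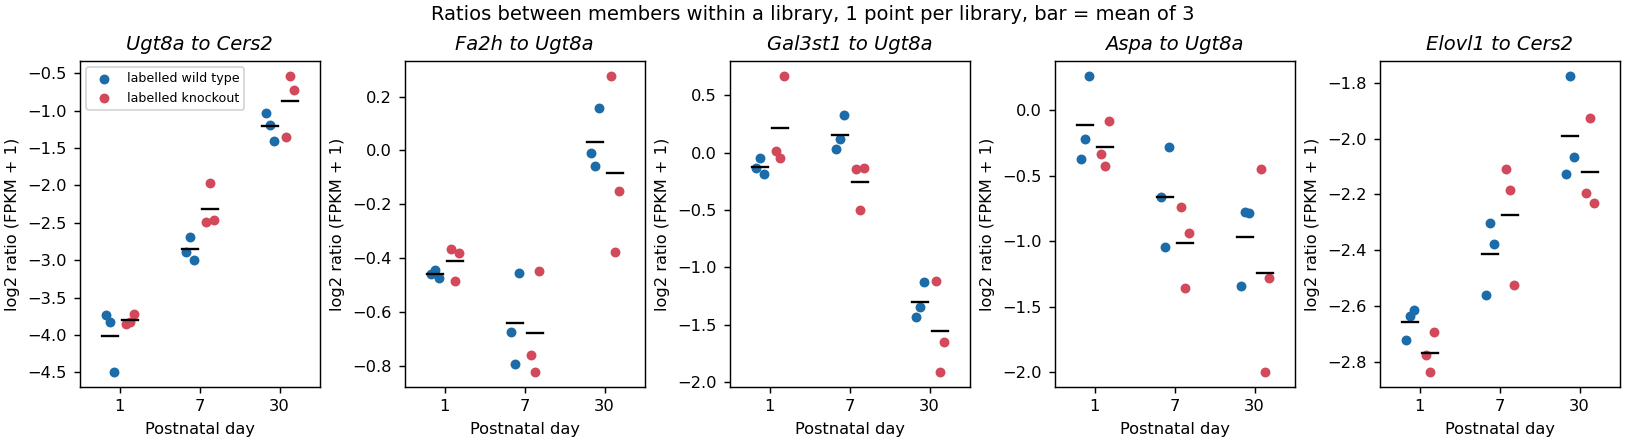
Log2 ratios between pairs of members within each library, on values of FPKM + 1, by postnatal day, with 1 point per library, blue for libraries labelled wild type and red for knockout, and a bar at the mean of 3; each panel has its own axis range. The ratio of Ugt8a to Cers2 climbed at both steps, and that of Gal3st1 to Ugt8a dropped between day 7 and day 30.

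The comparison of genotypes asked whether these genes differ between cortex labelled knockout and wild type at each age. None of the 6 members passed at day 1, day 7 or day 30, where limma called 0.517%, 0.00749% and 0.0225% of all genes. At an unadjusted p under 0.05 the members numbered 0, 2 and 2, against 2901, 470 and 479 genes in all. For the mean of the 3 daily differences none passed either, with 0.0974% of all genes called and 3 members at an unadjusted p under 0.05, against 1344 of all genes. None passed the limma F test of the genotype by day interaction, with adjusted p-values of 0.564 to 0.791 and a background of 0.015%. No member had an unadjusted p under 0.05 in that test, against 1225 of all genes. The misses do not show that the levels were alike.

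Fa2h had the most regular difference between genotypes. At day 7 its knockout values of 0.663, 0.968 and 1.21 FPKM all lay above the wild type values of 0.350 to 0.470, a 2.25-fold difference of means (log2 0.45, 95% interval 0.17 to 0.72, unadjusted p = 0.00344, adjusted p = 1.00, limma). At day 30 all 3 knockout values, 9.97 to 11.3 FPKM, again lay above all wild type values, 6.35 to 9.45, with a 1.38-fold difference of means (log2 0.43, 95% interval 0.15 to 0.70, adjusted p = 1.00, limma). At day 1 the groups overlapped near 0 (log2 0.04, 95% interval -0.23 to 0.32, adjusted p = 0.872, limma). The mean over the 3 days was log2 0.31 (SE 0.0751, adjusted p = 0.166, limma).

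Ugt8a was also higher in the knockout means at days 7 and 30, without passing the test. At day 7 the knockout libraries measured 2.10 ± 0.343 FPKM and the wild type libraries 1.23 ± 0.292 (SD, n = 3 each; exact permutation p = 0.1, the smallest that 3 against 3 allows), with no overlap. The log2 difference was 0.48 (95% interval 0.11 to 0.86, unadjusted p = 0.0151, adjusted p = 1.00, limma). At day 30 the knockout libraries averaged 11.6 ± 3.22 FPKM against 7.59 ± 1.67 for wild type (exact permutation p = 0.2; SD, n = 3 each), and the groups overlapped, as knockout replicate 1, at 8.05 FPKM, lay within the wild type range. The log2 difference there was 0.54 (95% interval 0.17 to 0.92, adjusted p = 1.00, limma), and at day 1 it was -0.01 (95% interval -0.38 to 0.37, adjusted p = 0.988, limma). Over the 3 days the mean was 0.34 (SE 0.102, adjusted p = 0.299, limma).

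At day 7 same-numbered libraries of the genotypes deviated from their group means together, though the labels do not say what a shared number means. The fit with a block below was added after this was seen in the same data. A limma fit of those 6 libraries with the replicate number as a block called 1 of the 6 members, Ugt8a, with the same log2 difference of 0.48 and an adjusted p of 0.0427. It called 500 genes, 3.75% of all. The same 6 libraries fitted without the block gave 9 genes, 0.0674% of all, and no member, with an adjusted p of 0.254 by limma for both Ugt8a and Fa2h. In the blocked fit Fa2h had an adjusted p of 0.0537, and the other 4 members 0.458 to 0.766.

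Gal3st1 at day 1 averaged 0.686 ± 0.508 FPKM in the knockout libraries against 0.305 ± 0.0363 in the wild type ones (exact permutation p = 0.1; SD, n = 3 each). The groups did not overlap, but the knockout mean rests on replicate 3, and the log2 difference of 0.33 (95% interval -0.02 to 0.68, adjusted p = 0.250, limma) was 0.10 without it. At day 7 its groups overlapped (log2 0.06, 95% interval -0.28 to 0.41, adjusted p = 1.00, limma). At day 30 knockout values of 3.05 to 3.35 FPKM lay above wild type values of 2.01 to 2.90 (log2 0.28, 95% interval -0.06 to 0.63, adjusted p = 1.00, limma).

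Cers2 at day 30 averaged 21.6 ± 0.522 FPKM in the knockout libraries against 18.7 ± 2.00 in the wild type ones (exact permutation p = 0.1; SD, n = 3 each), without overlap, and the log2 difference was 0.20 (95% interval -0.13 to 0.54, adjusted p = 1.00, limma). At day 7 the difference was -0.07 and at day 1 it was -0.23 (adjusted p = 1.00 and 0.406, limma), and leaving out wild type day 1 replicate 3 turned the latter to 0.02. The 95% intervals were -0.40 to 0.27 at day 7 and -0.56 to 0.11 at day 1. Aspa differed by -0.18, 0.13 and 0.27 on the log2 scale at days 1, 7 and 30 and Elovl1 by -0.34, 0.08 and 0.08, with overlapping groups on every day. Without wild type day 1 replicate 3 the day 1 differences became 0.02 for Aspa and -0.07 for Elovl1. The 95% intervals of Aspa ran from -0.59 to 0.24, from -0.29 to 0.55 and from -0.15 to 0.69 at days 1, 7 and 30. Those of Elovl1 ran from -0.71 to 0.04, from -0.30 to 0.45 and again from -0.30 to 0.45.

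Knockout values lay wholly above wild type values for 1 of 6 members at day 1 (Gal3st1), 2 at day 7 (Ugt8a and Fa2h) and 3 at day 30 (Fa2h, Gal3st1 and Cers2). Among all genes tested this was so for 8.92%, 9.74% and 9.35%. No member lay wholly below, but the share of all genes that did is not given here, so nothing is read from that. The median log2 difference of the 6 members was -0.09 at day 1, 0.10 at day 7 and 0.28 at day 30, beside 0.02, -0.01 and 0.02 over all genes tested.

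The ratio of Ugt8a to Cers2 was higher in knockout than in wild type libraries by 0.37 on the log2 scale when libraries were permuted within days (exact permutation p = 0.0153, adjusted over 15 tests 0.0327). By day the means were -3.80 against -4.02 at day 1, -2.31 against -2.86 at day 7 and -0.87 against -1.21 at day 30 (n = 3 each). The groups were separate at day 7 only, and overlapped on the other days. The adjusted p rose to 0.0525 to 0.0670 when any of 8 single libraries was left out and to 0.0553 with a pseudocount of 3. The other 4 ratios differed between genotypes by -0.27 to -0.03, with adjusted p-values of 0.268 to 0.689 by the same exact permutation test.

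**Figure D3:**
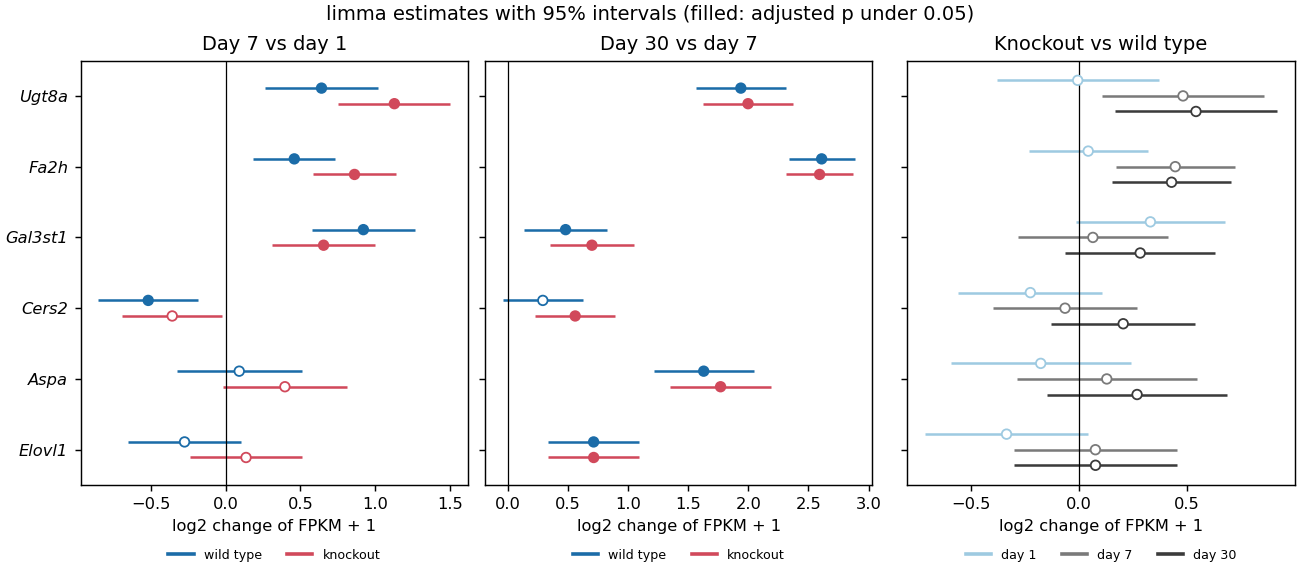
Log2 changes of FPKM + 1 from limma with 95% intervals, for day 7 against day 1, day 30 against day 7, and knockout against wild type at each day; filled symbols mark adjusted p-values under 0.05. No symbol in the genotype panel is filled, and the intervals of Ugt8a and Fa2h at days 7 and 30 lie above 0 before adjustment.

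Myelin protein genes were measured beside the members. The 11 structural genes of myelin, among them Mbp, summed to 13.0 to 16.4 FPKM in wild type day 1 libraries, 37.9 to 61.4 at day 7 and 697 to 1014 at day 30. The sums in knockout libraries were 17.0 to 31.3, 69.1 to 95.3 and 1068 to 1096 FPKM, above the wild type range on each day. As shares of the FPKM total of each library, the genotypes stayed separate at days 1 and 7 and overlapped at day 30. There knockout replicates 1 and 3, at 0.292% and 0.307%, lay below wild type replicate 1, at 0.309%. At day 7 all 11 had a positive knockout difference with a median of 0.41 on the log2 scale and none passed the test, and at day 30 the median was 0.33, again with 11 of 11 positive and none passing. Of 5 tested lineage factors the knockout difference was positive for 4, 4 and 5 at days 1, 7 and 30, with medians of 0.52, 0.17 and 0.21, and of 7 precursor genes for 6, 5 and 7, with medians of 0.29, 0.08 and 0.20. Olig1, a lineage factor, was higher in knockout at day 1 (log2 0.73, adjusted p = 0.0126, limma), and no other gene of these lists passed on any day. Also called higher at day 1 were the astrocyte gene Aqp4 (log2 0.95, adjusted p = 0.0124, limma) and the neuronal gene Elavl4 (log2 0.93, adjusted p = 0.00782, limma). Wild type day 1 replicate 3 had the lowest day 1 sums of lineage factors, astrocyte genes and neuronal genes, at 36.4, 55.1 and 928 FPKM. The part of that library in these calls was not tested. Microglial genes were positive in 7 of 8 at day 7, with a median of 0.43 and sums of 94.6 to 135 FPKM in knockout and 67.4 to 94.4 in wild type libraries, and in 8 of 8 at day 30, with a median of 0.15. At day 30 all 8 meningeal and fibroblast genes and all 5 tested blood genes were positive as well, with medians of 0.52 and 0.67 and none passing. Astrocyte genes were positive in 7 of 8 at day 7 and 1 of 8 at day 30, and neuronal genes in 6 and 5 of 8. Endothelial and pericyte genes were positive in 3 and 4 of 8. At day 7, 2 of 8 meningeal and fibroblast genes and 2 of 5 blood genes were positive. Of all 13347 genes tested, 7036, 6332 and 7376 were positive at days 1, 7 and 30. The genotype differences of Ugt8a and Fa2h at days 7 and 30 thus stood beside positive differences in some cell types and not in others. The part of those cell types was not tested. Trace salivary gland RNA also followed the genotype label at day 7, with sums of 8.07 to 10.6 FPKM in wild type and 0.527 to 0.832 in knockout libraries, and its part was not tested.

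Set against the mean log2 value of the same 11 genes within each library, the day 7 genotype gap of Ugt8a was no longer seen. Ugt8a lay at -0.52 to -0.38 in wild type and at -0.50 to -0.41 in knockout libraries, and Fa2h also overlapped. Gal3st1 lay at -0.41 to -0.05 in wild type and lower, at -0.97 to -0.54, in knockout libraries, and Cers2 at 2.16 to 2.62 and at 1.50 to 2.06, both without overlap. These values are a description with no test. From day 7 to day 30 every member lost ground to the structural genes, which rose by a median of 4.15 on the log2 scale in wild type libraries and by 3.59 in knockout libraries. The members' median log2 steps were 1.17 in wild type and 1.24 in knockout libraries, and those of all genes -0.08 and -0.05. Aspa, and Fa2h but for 1 library, reached 1 FPKM at day 30 alone. The filter thus favoured their rise, and nothing is read from the members' medians beside those of all genes.

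**Figure D4:**
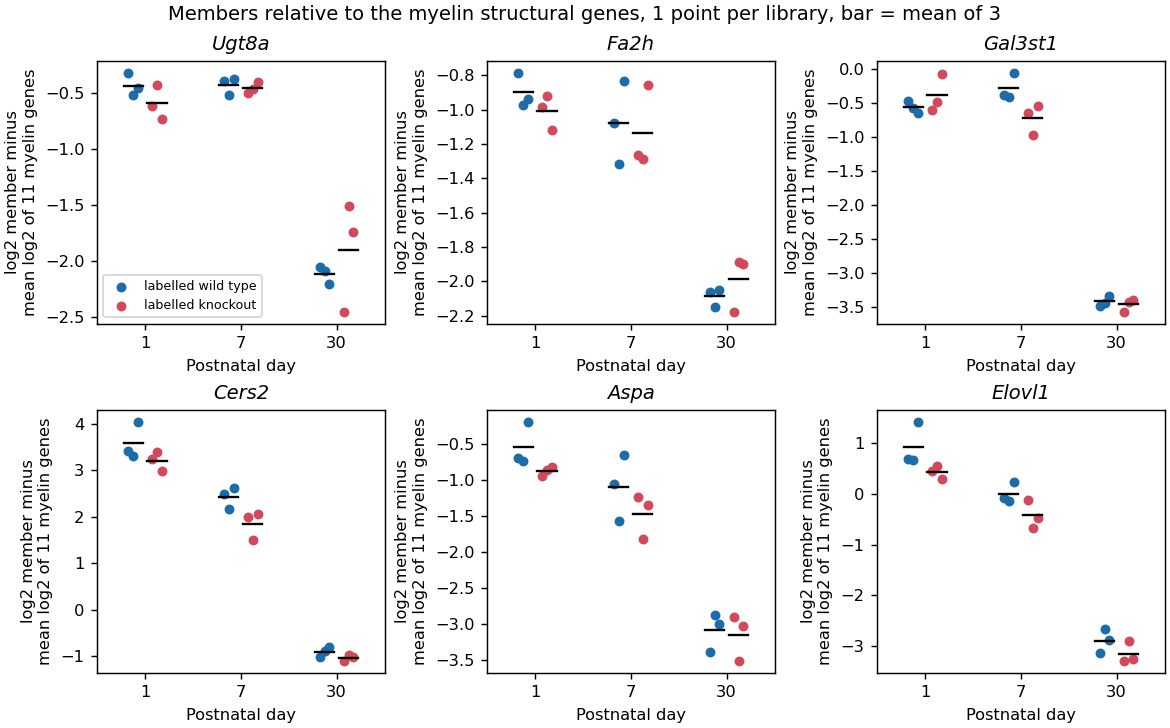
Log2 of each member (FPKM + 1) minus the mean log2 of 11 myelin structural genes in the same library, by postnatal day, with 1 point per library and a bar at the mean of 3; each panel has its own axis range. All 6 members lay lowest at day 30, and at day 7 the genotypes overlap for Ugt8a and Fa2h and are separate for Gal3st1 and Cers2.

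Across the 18 libraries, which share a strong ordering by age, Ugt8a and Fa2h correlated at r = 0.985 on the log2 scale, and Cers2 and Ugt8a at 0.158. After subtraction of group means, Ugt8a and Fa2h still correlated at 0.58, Cers2 with Elovl1 at 0.75, and Ugt8a with Aspa at -0.61. The pair of Cers2 and Elovl1 shares the high value of wild type day 1 replicate 3. The genes with the most similar course to Ugt8a were Myrf, Mbp, Fa2h, Mag and Il10ra (r = 0.983 to 0.989). Those nearest Fa2h were Gjc3, Mag, Myrf, Mbp and Mobp (0.990 to 0.992), and those nearest Gal3st1 were Trnp1, Gng13, Got1, Syt13 and Cnp (0.969 to 0.976). For Aspa they were Bcap29, Igtp, Laptm4b, Gm31308 and Tuba8 (0.978 to 0.981), and for Elovl1 Ctdspl, Plekhg3, Slc25a42, Acvrl1 and Cyp2d22 (0.940 to 0.947). Cers2 had the weakest neighbours, Acer2, Pttg1ip, Dhrs3, Slc12a2 and Ttc38 (0.886 to 0.905). These are correlations over the same 18 libraries and are given as a description.

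Genes that feed galactolipid synthesis were counted in each direction, beside all genes tested. From day 7 to day 30, 20.8% of all genes rose and 29.6% fell in wild type libraries, and 15.9% rose and 22% fell in knockout libraries. From day 1 to day 7 the shares were 20.9% and 28% in wild type and 19.3% and 29.4% in knockout libraries. Of 12 tested genes of ceramide and sphingolipid synthesis, 4 rose and 3 fell from day 7 to day 30 in wild type libraries. Sptlc2 and Sptssa, which encode a subunit and an activator of serine palmitoyltransferase, fell by 1.05 (adjusted p = 0.000132, limma) and 1.27 (adjusted p = 5.74e-07, limma) on the log2 scale. Sptlc2 went from 11.7 ± 0.539 to 5.13 ± 0.183 FPKM (SD, n = 3 each). Sgms1, a sphingomyelin synthase that draws on the same ceramide, rose by 0.78 (adjusted p = 0.000665, limma). From day 1 to day 7, 2 of the 12 rose and 3 fell, with Sptlc2 up by 0.48 (adjusted p = 0.0326, limma) and the ceramide synthase Cers6 at -0.49 (adjusted p = 0.0421, limma). In knockout libraries 2 rose and 1 fell over the earlier step and 3 rose and 3 fell over the later one. Cers1, another ceramide synthase, was not analysed here.

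Of 10 genes that supply UDP-galactose and the sulfate donor, 2 rose and 3 fell from day 7 to day 30 in wild type libraries, shares close to those of all genes. Galk1, galactokinase, fell by 1.45 on the log2 scale (adjusted p = 0.000302, limma), from 9.04 ± 1.04 to 2.70 ± 0.650 FPKM (SD, n = 3 each). Of the synthases of the sulfate donor, Papss2 rose by 0.82 (adjusted p = 0.0375, limma) and Papss1 fell by 0.70 (adjusted p = 5.05e-05, limma). From day 1 to day 7, 2 rose and 2 fell, led by Galt, the uridylyltransferase of galactose, at log2 1.38 (adjusted p = 0.000103, limma). In knockout libraries 1 rose and 1 fell over the earlier step and 1 rose and 3 fell over the later one.

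More of the other fatty acid genes fell than rose from day 7 to day 30, as among all genes. Of 18 genes of fatty acid synthesis, elongation and desaturation, 3 rose and 8 fell from day 7 to day 30 in wild type and likewise in knockout libraries. Fasn, fatty acid synthase, fell from 48.8 ± 9.11 to 19.2 ± 3.68 FPKM in wild type (SD, n = 3 each; log2 -1.30, adjusted p = 7.47e-05, limma) and Acaca, which makes its malonyl-CoA, by 1.32 (adjusted p = 9.26e-06, limma). Acsbg1, an acyl-CoA synthetase, rose by 1.25 (adjusted p = 7.38e-05, limma). From day 1 to day 7, 8 rose and 1 fell in wild type, with Acsbg1 at 2.56 (adjusted p = 1.28e-07, limma), and 6 rose and 1 fell in knockout libraries.

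On the side of acetate, Nat8l, the synthase of the N-acetylaspartate that Aspa splits, rose at both steps. It measured 7.05 ± 2.24, 15.01 ± 3.43 and 61.4 ± 4.02 FPKM at days 1, 7 and 30 in wild type libraries (SD, n = 3 each). Its log2 steps were 1.01 (adjusted p = 0.00164, limma) and 1.98 (adjusted p = 2.80e-06, limma), so that synthase RNA passed the earlier step at which Aspa did not. Whether the steps of the 2 genes differ was not tested. Of the 10 genes of that list, 5 rose and none fell from day 1 to day 7, and 2 rose and 3 fell from day 7 to day 30. Those that fell were led by Rimklb and Rimkla, which encode enzymes joining N-acetylaspartate to glutamate, at -1.95 (adjusted p = 1.55e-07, limma) and -1.89 (adjusted p = 1.44e-07, limma).

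Of 10 genes of galactolipid breakdown, 3 rose and 1 fell from day 1 to day 7 in wild type, and 4 rose and 1 fell from day 7 to day 30. Psap, the precursor of the saposins that present these lipids to lysosomal enzymes, rose by 0.57 (adjusted p = 0.00127, limma) and by 0.59 (adjusted p = 0.000812, limma), reaching 514 ± 5.23 FPKM (SD, n = 3). Between genotypes, 1 gene of these 5 lists passed on any day, Acsbg1 at day 1, with 6.77 ± 1.60 FPKM in knockout and 3.08 ± 1.20 in wild type libraries (SD, n = 3 each; log2 0.96, adjusted p = 0.0433, limma).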

How the data were processed

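RNA of mouse cerebral cortex had been sequenced in 18 libraries, which the labels place in 6 groups of 3. The authors deposited 1 table of FPKM for 28852 genes with 1 column per library. Per the submitters' processing notes, Bowtie2, RSEM 1.3.1, DESeq2 1.4.5 and build GRCm39 were used. The sources used here do not state their roles, the annotation or the strandedness. The table holds no read counts, so absolute depth is unknown and no counting interval is given. The FPKM values of a library summed to between 313919 and 394975. All labels carry the same batch date, so no batch could be compared.

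Values were transformed as log2(FPKM + 1), the 13347 genes that reached 1 FPKM in 3 or more of the 18 libraries were kept, and limma 3.58.1 (R 4.3.3) modelled the 6 group means with the mean-variance trend. Benjamini-Hochberg adjustment ran over all 13347 genes, and adjusted p-values under 0.05 were called. Exact two-sided permutation tests compared single values of 3 against 3 libraries, in scipy 1.17.1, and ratios between members, in numpy 2.4.6. The p-values of ratios were adjusted over the 15 ratio tests. The scripts were tested on simulated data. The members and gene lists were chosen with earlier results of these data known. Other genes were named by rule, up to 3 per list with an adjusted p under 0.05 and the largest log2 change in the contrast described, from which the text gives examples. Marker genes of other tissues and myelin genes are named beside the results they bear on. The 5 nearest patterns per member were taken by Pearson correlation over 18 libraries.

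Whether same-numbered libraries pair was checked by the correlation of their deviations from group means. It was 0.333, 0.337 and 0.530 between genotypes at day 7, and 0.143, 0.233 and 0.289 between knockout days 1 and 7, all above the limit of 0.1. In each of the other comparisons at least 1 pair was at or below that limit, and 7 of all 21 pairs exceeded it. The fits of those groups with the replicate number as a block were added after the data were seen. Promoter windows are RefSeq sequences of GRCm38.p6, and overlapping genes were read from GENCODE annotation of that build. Alternatives covered the pseudocount, the filter, quantile and median-of-ratios normalization, the trend, library weights, a Y-linked covariate, the replicate block, the 6 compared libraries alone, and each library left out. Some genes are not reported here.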

Additional observations from a re-analysis of the deposited data

Results flagged for a closer look

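The ratio of Gal3st1 to Ugt8a on values of FPKM + 1 stands out because its step from day 1 to day 7 went opposite ways in the genotypes, up by 0.28 in wild type and down, at -0.47, in knockout libraries on the log2 scale. The knockout step minus the wild type step was -0.75, and this difference was not tested. In every library of a genotype the day 7 value lay on the same side of all its day 1 values. Without knockout day 1 replicate 3, whose Gal3st1 value was high, the knockout step was -0.25 and the difference of steps -0.53. With pseudocounts of 0.1 and 3 the difference was -1.44 and -0.39.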

How the results depend on the processing

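Most results kept their direction and their side of the threshold under the alternatives. The number of members called was within 1.5 times the reported number in 93 of 102 settings other than leaving out a library. Leaving out each of the 18 libraries in turn gave 0 members for every genotype comparison and for the interaction, 4 for wild type day 7 against day 1, 4 to 6 for wild type day 30 against day 7, 3 to 4 for knockout day 7 against day 1, 5 to 6 for knockout day 30 against day 7, and 6 to 10 of the 15 ratios. The genotype comparison at day 7 called 2 members with library quality weights (Fa2h, adjusted p = 0.00767, and Ugt8a, adjusted p = 0.00991, limma). That fit called 1875 genes, and its weights did not converge. The same comparison called 1 member in its 6 libraries alone with the replicate block. Knockout day 7 against day 1 called 5 members with quality weights, in its 6 libraries alone, and in those with the block. Cers2 at wild type day 30 against day 7 was called with median-of-ratios scaling (adjusted p = 0.0328, limma), with quality weights (0.00402), in its 6 libraries alone (0.0153) and without wild type day 1 replicate 3 (0.0168), the last of which also called Cers2 at knockout day 7 against day 1 (adjusted p = 0.00480, limma). Wild type day 7 against day 1 called 2 with a pseudocount of 3. With the filter raised to 5 FPKM, which left 3 members, 2 were called for wild type and 3 for knockout day 30 against day 7. The block over all 18 libraries changed no member's call. For the ratios, a permutation of signs over same-numbered libraries called 0 of 15, since the smallest adjusted p it gave was 0.0781. With so few differences per age ratio, its smallest possible p passes adjustment over the 15 tests only if many tests reach it. Nothing is therefore read from those misses.

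Some values near 0 changed sign, and the cause was not tested. With a pseudocount of 0.1 the ratio of Fa2h to Ugt8a gave 0.60 for day 7 against day 1 and 0.14 between genotypes, and that of Aspa to Ugt8a 0.34 for day 30 against day 7. With quality weights the day 1 genotype difference was 0.055 for Cers2 and 0.066 for Ugt8a, and the mean over days 0.051 for Cers2 and 0.045 for Elovl1. With quantile normalization Aspa gave -0.061 for wild type day 7 against day 1. Leaving out single libraries, the genotype difference at day 1 ranged from -0.29 to 0.016 for Aspa, -0.35 to 0.021 for Cers2 and -0.043 to 0.037 for Ugt8a. At day 7 it ranged from -0.12 to 0.020 for Cers2, -0.032 to 0.15 for Elovl1 and -0.019 to 0.14 for Gal3st1, and at day 30 from -0.0041 to 0.13 for Elovl1. The mean over days ranged from -0.072 to 0.053 for Cers2 and -0.11 to 0.028 for Elovl1, and wild type day 7 against day 1 from -0.026 to 0.28 for Aspa. The ratios ranged from -0.17 to 0.028 for Gal3st1 to Ugt8a at day 7 against day 1, and between genotypes from -0.064 to 0.0095 for Elovl1 to Cers2 and -0.093 to 0.015 for Fa2h to Ugt8a.

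With 3 libraries per group and an unknown depth, precision is limited, most of all for Fa2h and Aspa before day 30, where values lay near or below 1 FPKM.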
